A study of Mus musculus with 8 samples.

Results

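De novo lipogenesis, the making of fatty acids from acetyl-CoA, was read in mouse thoracic aorta through 10 genes: the enzymes Acly, Acaca, Acacb, Fasn, Elovl6, Scd1 and Scd2 and the regulators Srebf1, Mlxipl and Thrsp. Every array probe whose RefSeq accession belongs to one of these genes was taken. They gave 10 of the 21364 genes named on the array and 15 probes, of which 14 could be tested between genotypes. The study compared 4 thoracic aorta samples from mice lacking Fto (Fto -/-) with 4 from mice carrying it (Fto +/+). Fto encodes a demethylase that acts on methylated adenosines of RNA. All mice were labelled male, on a C57BL6J/NMRI background, with free access to food and no treatment named. The labels do not give the age of the mice, the kind of Fto allele or whether each sample was a separate animal, so p-values measure only the spread between these samples, which may be technical. RNA was taken with a lipid tissue kit, and the labels do not say whether fat around the vessel was removed.

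In this pathway ATP citrate lyase (Acly) splits citrate to acetyl-CoA, acetyl-CoA carboxylases (Acaca, Acacb) turn that to malonyl-CoA, and fatty acid synthase (Fasn) builds palmitate from both. Elovl6 lengthens palmitate to stearate, and the stearoyl-CoA desaturases (Scd1, Scd2) put a double bond in. Srebf1 and Mlxipl encode the transcription factors SREBP-1 and ChREBP, which respond to insulin, sterols and sugar. Liver and fat are the tissues best known for this pathway, and both white and brown adipocytes lie around the thoracic aorta.

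Levels are given as the log2 of the processed intensity of a probe minus the 75th percentile of its array, so that a difference of 1 is a doubling. Probes differ in brightness for reasons other than RNA amount, so the level of one gene was not set against that of another. Differences are Fto -/- minus Fto +/+ from a limma fit over 25292 tested probes, with Benjamini-Hochberg adjusted p-values and a threshold of 0.05. The 75th percentile of intensity was 374.4, 319.4, 294.9 and 335.8 in Fto -/- replicates 1 to 4. It was 374.7, 415.6, 381.5 and 320.2 in the Fto +/+ replicates, and the genotypes overlapped. Between 45.56% and 47.74% of probes were well above background in Fto -/- samples, and between 44.48% and 45.21% in Fto +/+ samples. These 2 ranges did not overlap, and the cause was not tested. The number of arrays limits the precision.

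Fto itself, which checks the labels, lay at -2.53, -2.19, -2.56 and -2.77 in Fto -/- replicates 1 to 4 and at 0.60, 0.85, 0.47 and 0.35 in the Fto +/+ replicates. It fell 8.47-fold, with a limma log2 difference of -3.08 ± 0.15 (SE, n = 4 per genotype; adjusted p = 0.000403; exact two-sided permutation p = 0.0286, the smallest this design allows). The free-text description of each sample names the opposite genotype to its title and genotype field, and Fto followed the title. Both Xist probes were well above background on all 8 arrays, and 5 of 6 probes of 5 Y-linked genes were on none, which goes against the label male.

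The promoters of Fasn, Acacb, Elovl6 and Thrsp are shown because these genes had the 4 largest differences among the 8 members whose promoter was given. Each runs from 250 bases before to 50 bases after the RefSeq transcription start (build GRCm38.p6), 5′ to 3′ on the strand of the gene, with capitals for CCAAT and TATAAA on either strand.
Fasn, chr11:120824498-120824797, minus strand: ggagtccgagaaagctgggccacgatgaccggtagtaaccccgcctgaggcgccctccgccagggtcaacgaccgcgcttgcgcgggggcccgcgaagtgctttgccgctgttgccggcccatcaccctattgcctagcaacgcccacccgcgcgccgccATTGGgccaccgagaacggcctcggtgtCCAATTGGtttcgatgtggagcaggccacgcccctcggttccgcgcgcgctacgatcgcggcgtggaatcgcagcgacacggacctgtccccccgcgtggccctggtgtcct
Acacb, chr5:114165268-114165567, plus strand: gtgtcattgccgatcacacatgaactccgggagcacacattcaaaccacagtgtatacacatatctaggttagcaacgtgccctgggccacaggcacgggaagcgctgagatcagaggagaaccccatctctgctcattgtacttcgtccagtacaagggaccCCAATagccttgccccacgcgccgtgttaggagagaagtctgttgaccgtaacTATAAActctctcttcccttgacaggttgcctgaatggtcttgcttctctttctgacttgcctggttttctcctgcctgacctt
Elovl6, chr3:129532136-129532435, plus strand: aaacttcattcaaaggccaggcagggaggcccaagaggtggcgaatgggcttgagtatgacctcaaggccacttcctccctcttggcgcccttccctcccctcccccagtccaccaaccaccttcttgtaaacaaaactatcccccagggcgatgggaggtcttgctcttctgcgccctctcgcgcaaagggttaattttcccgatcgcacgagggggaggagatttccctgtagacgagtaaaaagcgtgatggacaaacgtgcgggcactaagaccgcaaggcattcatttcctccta
Thrsp, chr7:97417501-97417800, minus strand: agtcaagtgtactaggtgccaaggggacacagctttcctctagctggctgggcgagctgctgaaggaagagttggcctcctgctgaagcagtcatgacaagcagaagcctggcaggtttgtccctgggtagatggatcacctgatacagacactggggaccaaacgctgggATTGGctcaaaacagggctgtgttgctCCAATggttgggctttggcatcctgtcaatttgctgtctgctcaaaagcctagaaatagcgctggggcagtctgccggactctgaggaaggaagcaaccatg

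CCAAT is the core of the sequence that the factor NF-Y binds, often beside SREBP. It began 90, 62 and 59 bases before the start of Fasn, the last 2 overlapping, 87 before that of Acacb, and 79 and 52 before that of Thrsp. The Elovl6 window held none of the letters searched. Promoters were given for 8 of the 10 genes, not for Scd1 and Scd2, in 11 windows. CCAAT was found in 7 of the 11 windows, those of Fasn, Acacb, Acly, Srebf1 (2 of its 3), Mlxipl (1 of its 2) and Thrsp, and in 37.4% of all 32851 promoters of the table. GGGCGG, the box bound by Sp1, stood in 4 of the 11 windows, of Acly, Srebf1 and Mlxipl, and in 35.7% of all promoters. TATAAA stood in the Acacb window alone among the 11 (13.6% of all). The sterol element TCACNCCAC (1.24% of all) and the E-box CACGTG (7.15% of all) were each found in a single window, in both cases of Mlxipl. Both strands were searched, and a match describes letters, not a bound site.

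The largest differences lay in Thrsp, a regulator, and in the last steps of the pathway, Elovl6 and Scd1. Fto -/- samples averaged 2.4-fold, 2.36-fold and 2.03-fold the Fto +/+ level of these genes, in that order. Acacb was at 1.78-fold, Fasn at 1.6-fold, Acly at 1.38-fold and Acaca at 1.33-fold, while Scd2, Srebf1 and Mlxipl were at 0.859-fold, 0.986-fold and 0.959-fold. These folds are of the brightest probe of each gene. The spread between samples was wide, and no gene passed the test. None of the 14 tested probes of the 10 genes passed the threshold (0 of 14, limma), against 1.66% of all tested probes. At an unadjusted p under 0.05 there were 7 of the 14, in Elovl6, Thrsp, Acacb (both probes), Scd1, Acly and Acaca. All 7 were higher in Fto -/- samples, a direction and size of p seen in 8.72% of all tested probes, while 19.0% reached that p in either direction. The probes of a pathway share RNA samples and are not independent. The members were also chosen with earlier results of these data known, so these counts are a description. With 1 probe per gene (the brightest), 7 of the 10 differences were positive and the median was 0.57, against -0.04 over the 13050 genes tested, of which 43.8% were positive. That median stayed positive, from 0.39 to 0.96, under all 23 alternative settings.

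**Figure D1:**
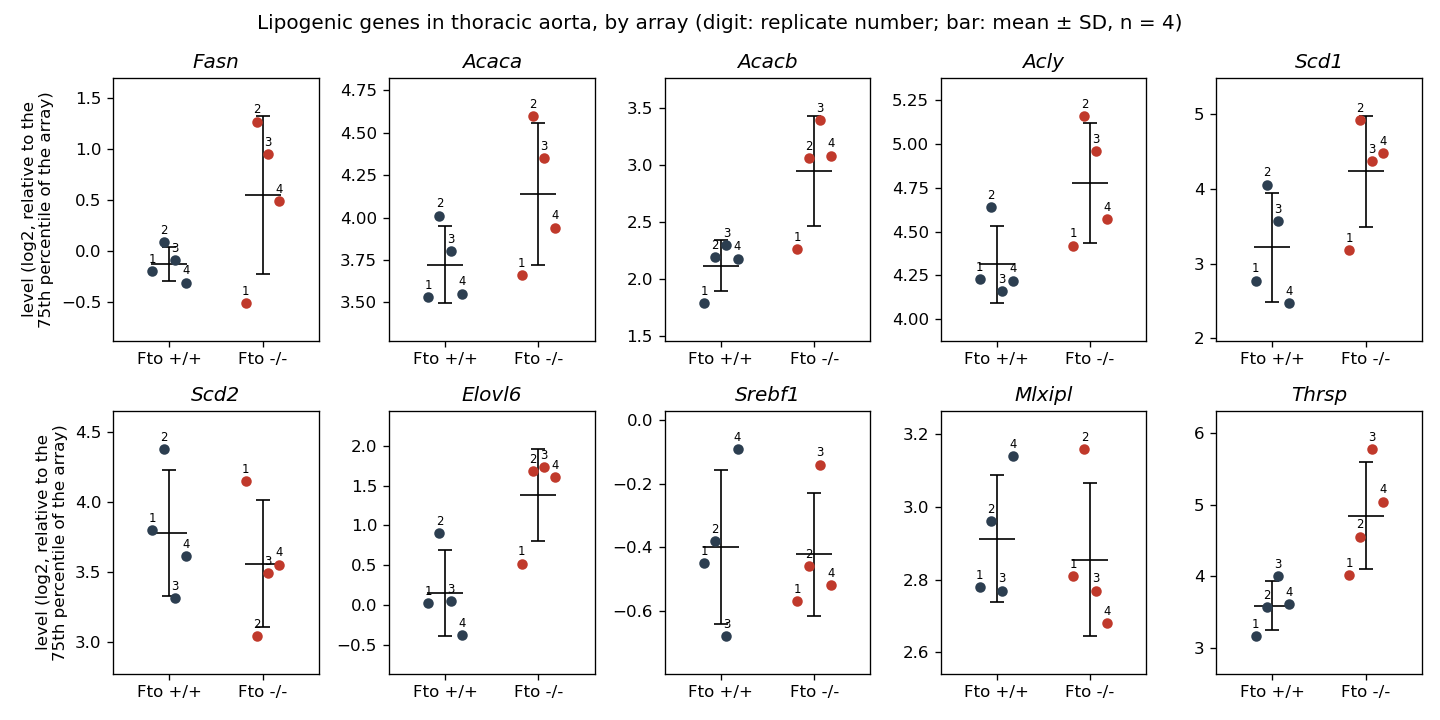
Level of each of the 10 lipogenic genes (log2, relative to the 75th percentile of the array; 1 panel per gene, vertical scales differ) in the 4 Fto +/+ (dark) and 4 Fto -/- (red) samples, with replicate numbers and the mean ± SD (n = 4). Thrsp is the only gene whose 2 groups do not overlap, Fto -/- replicate 1 is the lowest of its group for Fasn, Acaca, Acacb, Acly, Scd1, Elovl6, Srebf1 and Thrsp, and Srebf1, Mlxipl and Scd2 show similar ranges in both genotypes.

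Acly, which supplies cytosolic acetyl-CoA, has 2 probes. The brighter (NM_001199296) lay at 4.42, 5.16, 4.96 and 4.57 in Fto -/- replicates 1 to 4 and at 4.23, 4.64, 4.16 and 4.22 in Fto +/+ replicates 1 to 4. The groups overlapped only because Fto +/+ replicate 2 reached 4.64, above 2 of the Fto -/- samples. The log2 difference was 0.46 ± 0.18 (SE; limma adjusted p = 0.226). The dimmer probe (NM_134037) gave 0.57 ± 0.32 (adjusted p = 0.368).

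Acaca encodes the cytosolic carboxylase whose malonyl-CoA feeds Fasn. Its brightest probe (NM_133360) lay at 3.66, 4.60, 4.35 and 3.94 in Fto -/- and at 3.53, 4.01, 3.80 and 3.55 in Fto +/+ samples. Only Fto -/- replicates 2 and 3 were above every Fto +/+ sample. The difference was 0.41 ± 0.21 (SE; limma adjusted p = 0.331). A second probe gave 0.55 ± 0.24 (adjusted p = 0.26), and the remaining probe, well above background on Fto -/- replicate 2 alone, was not tested.

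Acacb, the carboxylase at the mitochondrial surface whose malonyl-CoA restrains fatty acid oxidation, differed more than Acaca in both of its probes, although the difference between the 2 genes was not tested. The brighter Acacb probe (NM_133904) lay at 2.26, 3.06, 3.39 and 3.08 in Fto -/- and at 1.79, 2.19, 2.30 and 2.18 in Fto +/+ samples. Fto -/- replicate 1 fell within the Fto +/+ range, and the other 3 lay above it. The difference was 0.83 ± 0.23 (SE; limma adjusted p = 0.112), or 1.78-fold. It passed the threshold without Fto -/- replicate 1, at 1.06 (adjusted p = 0.038), where 133 of all 25292 tested probes passed. The dimmer probe, well above background on 3 of 4 Fto +/+ arrays, gave 0.94 ± 0.37 (adjusted p = 0.227).

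Fasn (NM_007988), the synthase itself, had the widest spread among Fto -/- samples relative to its controls. Its level was -0.51, 1.27, 0.95 and 0.49 in Fto -/- and -0.20, 0.09, -0.09 and -0.31 in Fto +/+ samples. The 4 Fto +/+ samples lay close together (SD 0.17), while Fto -/- samples spread over both sides of them (SD 0.77). Replicate 1 was the lowest of all 8 and the other 3 were above every control. The difference was 0.68 ± 0.34 (SE; 95% interval -0.09 to 1.45; limma adjusted p = 0.318). Without Fto -/- replicate 1 it was 1.03 (adjusted p = 0.0751), and without replicate 2 it was 0.44.

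**Figure D2:**
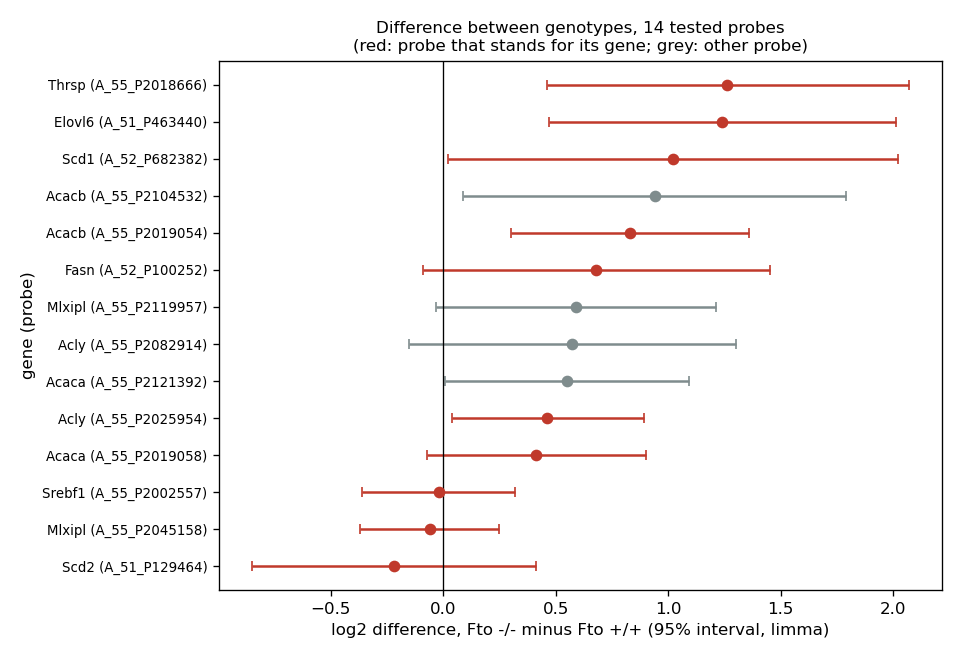
Log2 difference, Fto -/- minus Fto +/+, of the 14 tested probes with the 95% interval of the limma fit, red for the probe that stands for its gene and grey for other probes. Thrsp at 1.26 and Elovl6 at 1.24 are the largest, Srebf1 at -0.02 and the brighter Mlxipl probe at -0.06 lie at 0, and Scd2 at -0.22 lies below it.

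Elovl6 (NM_130450), the elongase of palmitate, lay at 0.52, 1.68, 1.73 and 1.61 in Fto -/- and at 0.02, 0.90, 0.05 and -0.38 in Fto +/+ samples. The 3 high Fto -/- samples were within a narrow band, and replicate 1, at 0.52, was the only one under a control, Fto +/+ replicate 2. The difference was 1.24 ± 0.34 (SE), or 2.36-fold, with a limma adjusted p of 0.108, the smallest of the 14 probes. With arrays weighted by their quality the difference was 1.25 and just passed the threshold (adjusted p = 0.049). Under those weights 1624 of all 25292 tested probes passed, against 419 without them.

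The desaturases did not share a direction. Scd1 (NM_009127), the isoform of liver and fat, lay at 3.18, 4.92, 4.37 and 4.48 in Fto -/- and at 2.77, 4.06, 3.57 and 2.47 in Fto +/+ samples. Its difference was 1.02 ± 0.44 (SE; limma adjusted p = 0.257), with wide spread in both groups (SD 0.74 and 0.73, n = 4 each). Scd2 (NM_009128), the isoform expressed in many other tissues, lay at 4.15, 3.04, 3.49 and 3.55 in Fto -/- and at 3.80, 4.38, 3.31 and 3.61 in Fto +/+ samples. Here Fto -/- replicate 2, the highest array for Scd1, was the lowest. The Scd2 difference was -0.22 ± 0.28 (SE; 95% interval -0.85 to 0.41; limma adjusted p = 0.701). The difference between Scd1 and Scd2 was not tested.

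Of the regulators, Thrsp had the largest difference, which was not tested against those of the transcription factors. Thrsp (NM_009381), also called Spot 14, is a small nuclear and cytosolic protein of lipogenic tissues that is induced by thyroid hormone and carbohydrate. It lay at 4.01, 4.55, 5.78 and 5.04 in Fto -/- and at 3.16, 3.56, 4.00 and 3.61 in Fto +/+ samples. Every Fto -/- sample was above every Fto +/+ sample, by as little as 4.01 against 4.00. This made it 1 of 14 member probes higher with no overlap, a pattern found in 4.75% of all tested probes. The difference was 1.26 ± 0.35 (SE), or 2.4-fold (limma adjusted p = 0.111).

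Srebf1 (NM_011480), whose product drives Fasn, Acaca, Elovl6 and Scd1, lay at -0.57, -0.46, -0.14 and -0.52 in Fto -/- and at -0.45, -0.38, -0.68 and -0.09 in Fto +/+ samples. Both groups covered the same range, and the difference was -0.02 ± 0.15 (SE; limma adjusted p = 0.953). Its 95% interval, -0.36 to 0.32, overlapped those of Fasn (-0.09 to 1.45) and Scd1 (0.02 to 2.02). It did not overlap that of Elovl6 (0.47 to 2.01), and no test set these genes against each other. A transcript level says nothing of how much SREBP-1 was cleaved and in the nucleus. For Mlxipl, the glucose-responsive ChREBP, the 2 probes gave different values and were not tested against each other. Their 95% intervals, -0.37 to 0.25 for the brighter and -0.03 to 1.21 for the other, overlap and both include 0. The brighter (NM_021455) lay at 2.81, 3.16, 2.77 and 2.68 in Fto -/- and at 2.78, 2.96, 2.77 and 3.14 in Fto +/+ samples, a difference of -0.06 ± 0.14 (SE; limma adjusted p = 0.844). The other lay at 1.87, 2.36, 2.85 and 2.22 against 1.13, 1.64, 1.92 and 2.26, a difference of 0.59 ± 0.27 (adjusted p = 0.283).

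The members followed a few patterns over the 8 arrays. Fto -/- replicate 2 was the highest array for 5 of the 10 genes and replicate 3 for another 3. Of the 10 genes, 8 lay above every Fto +/+ sample in Fto -/- replicate 2, 7 in replicate 3, 5 in replicate 4 and 1, Thrsp, in replicate 1. With each gene centred on its mean over the arrays, Acaca and Acly were the closest pair, with a root mean square difference of 0.11 over 8 arrays. Srebf1 and Mlxipl (brighter probe) were next at 0.19, then Fasn and Acaca at 0.28 and Scd1 and Elovl6 at 0.29. These values describe likeness over arrays that share the genotype contrast, and small values are easier to reach for genes that vary little.

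By the same measure over 8 arrays, the genes outside the list most like Fasn were Acss2 (0.28), Clmn (0.29) and Glul (0.29). Acss2, which makes acetyl-CoA from acetate in the cytosol, was also the gene most like Elovl6 (0.27), and Bmp3 was at 0.31 from it. Scd1 was closest to Strip2 (0.30), Rnf152 (0.36) and Hif3a (0.37). The Strip2 probe was dim, well above background on 3 Fto -/- arrays and 1 Fto +/+ array, with intensities of 15.1 to 107. Thrsp was closest to Nrg4 (0.18), a secreted factor abundant in brown fat, then Tmem79 (0.21) and Gchfr (0.22). The members' own SD over the arrays was 0.63 for Fasn, 0.84 for Elovl6 and 0.87 for both Scd1 and Thrsp.

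Other genes of the pathway were read as 5 lists with 88 genes, of which 82 were tested. None of the 82 passed the threshold (limma), and 16 reached an unadjusted p under 0.05, 9 higher and 7 lower in Fto -/- samples. That share is close to the 19.0% of all tested probes at this p, so the pooled count is not a result about the pathway. It mixes lists that differ in direction, which are given below. The 2 genes of smallest p are named per list. Of 13 genes supplying substrate and NADPH, 11 differences were positive, with a median of 0.15, beside 43.8% positive over all genes tested. Acss2 lay at 1.35, 2.47, 2.64 and 1.98 in Fto -/- against 1.36, 1.86, 1.05 and 0.78 in Fto +/+ samples, with replicate 1 again the low Fto -/- sample (0.85 ± 0.32, SE; adjusted p = 0.204). Idh1, the cytosolic NADPH-making isocitrate dehydrogenase, differed by 0.43 ± 0.17 (adjusted p = 0.228).

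Of the 21 genes that regulate SREBP, LXR and ChREBP, 17 differences were negative and the median was -0.22, beside a median of -0.04 and 43.8% positive over all genes tested. At an unadjusted p under 0.05 there were 6 of the 21, all lower in Fto -/- samples, against 10.3% of all tested probes that were lower at this p. The list as a whole was not tested. Insig2, which holds SREBP in the endoplasmic reticulum, lay at 2.04, 2.01, 1.96 and 2.07 in Fto -/- and at 2.50, 2.67, 2.43 and 2.30 in Fto +/+ samples. The groups did not overlap, and the difference of -0.45 ± 0.10 (SE) had a limma adjusted p of 0.0694. Stk11, the kinase LKB1 upstream of AMPK, likewise had no overlap, at 1.67, 1.67, 1.54 and 1.74 against 1.90, 2.20, 2.05 and 2.07 (-0.40 ± 0.10; adjusted p = 0.084). Some other genes of this list did not overlap either. The share of all tested probes lower in Fto -/- with no overlap was not counted. The mean of this list, with genes centred, was between -0.13 and -0.07 in the Fto -/- arrays and between 0.04 and 0.18 in the Fto +/+ arrays.

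Of 16 genes of elongation and desaturation other than the members, 13 were tested, with a median of -0.08. Fads3, a desaturase of sphingoid bases, differed by -0.54 ± 0.15 (SE; limma adjusted p = 0.108). Scd4, a desaturase best known from heart, gave 0.55 ± 0.23 (adjusted p = 0.238), measured above background in 3 Fto -/- samples and 1 Fto +/+ sample. Of the genes for fatty acid activation and triglyceride synthesis, 16 of 18 tested differences were positive, with a median of 0.23, beside 43.8% positive over all genes tested. At an unadjusted p under 0.05 (limma) there were 6 of the 18, all higher in Fto -/- samples, against 8.72% of all tested probes. The list as a whole was not tested. Gpd1, which makes glycerol 3-phosphate, lay at 4.87, 5.13, 6.70 and 6.25 in Fto -/- and at 3.43, 3.54, 4.28 and 4.23 in Fto +/+ samples (1.87 ± 0.42; adjusted p = 0.0698). Agpat3, a lysophospholipid acyltransferase, differed by 0.59 ± 0.13 (adjusted p = 0.0702). The groups did not overlap for either, nor for Agpat2 and Dgat2 of the same list. Higher in Fto -/- with no overlap was a pattern found in 4.75% of all tested probes.

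The 17 tested genes of sterol synthesis and uptake, targets of SREBP-2, had a median difference of -0.03 and none at an unadjusted p under 0.05. Pmvk gave 0.25 (limma adjusted p = 0.39) and Sc5d 0.19 (adjusted p = 0.53). The mean of this list was highest in Fto +/+ replicate 2 at 0.47 and Fto -/- replicate 1 at 0.37. Those were also the 2 arrays highest for Scd2.

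The fitted differences of most adipocyte markers were positive, and none passed the threshold. The 15 brown adipocyte markers had 13 positive differences, a median of 1.41 and 10 higher at an unadjusted p under 0.05 (0 passed the limma threshold). Over the whole array 43.8% of genes were positive and 8.72% of probes were higher at that p. Their mean, with genes centred, was 0.30, -0.15, 1.39 and 1.08 in Fto -/- replicates 1 to 4 and -1.04, -1.33, -0.07 and -0.18 in the Fto +/+ replicates. Ucp1, the uncoupling protein of brown fat, was well above background on all 8 arrays, at 5.12, 3.99, 6.83 and 6.61 against 1.54, 0.88, 4.06 and 4.47. Cidea gave 1.88 (adjusted p = 0.0884), Cox8b 1.82 (adjusted p = 0.164) and Cox7a1 2.00 (adjusted p = 0.113). In bulk tissue a change in the number of cells of a type and a change in RNA per cell cannot be told apart.

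White adipocyte markers had 14 of 15 positive differences and a median of 0.75, with 0 past the limma threshold and 2 at an unadjusted p under 0.05. Over the whole array 43.8% of genes were positive. Of all tested probes 19.0% reached that p in either direction and 8.72% were higher at it. The means of the white adipocyte markers were -0.18, -0.11, 0.92 and 0.51 in Fto -/- and -0.57, -1.12, 0.52 and 0.03 in Fto +/+ samples. Adipoq gave 0.86, Plin1 1.01, Plin4 -0.14 and Cidec 0.80, each well above background on all 8 arrays, as were Fabp4, Retn and Cfd. Lep was the marker not tested, with no array well above background. The order of arrays in these lists matched some members and not others. Fto -/- replicate 2 was the highest array for Fasn, Acaca, Acly and Scd1, yet was the lowest of its group for brown adipocyte markers. Fto -/- replicate 3 was the highest array of all for both adipocyte lists and for Thrsp, Acacb and, at 1.73 against 1.68 in replicate 2, Elovl6.

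**Figure D3:**
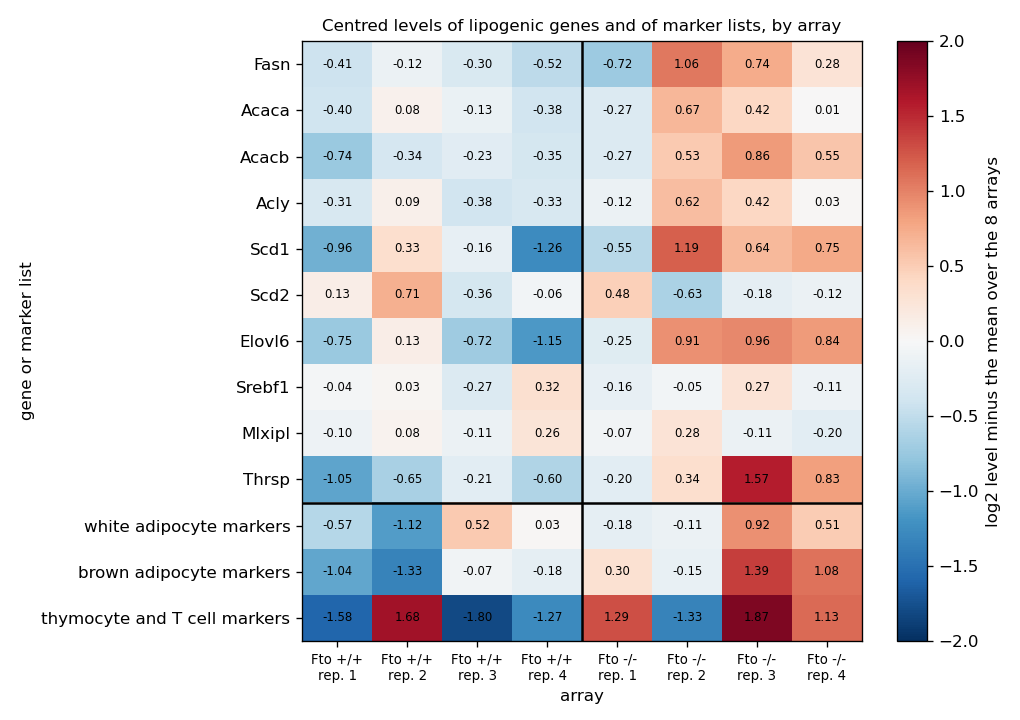
Level of each lipogenic gene, and the mean level of 3 marker lists, in each array after centring on the mean over the 8 arrays (log2; red above, blue below the mean; Fto +/+ replicates 1 to 4 at left, Fto -/- replicates at right). Fto -/- replicate 2 reaches 1.06 for Fasn and 1.19 for Scd1 with brown adipocyte markers at -0.15, and Fto -/- replicate 3 reaches 1.57 for Thrsp with brown adipocyte markers at 1.39.

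With the brown adipocyte level of each array as a covariate, the Thrsp difference was 0.41 in place of 1.26 and that of Acacb 0.47 in place of 0.83. Those of Elovl6 (1.41), Scd1 (1.28), Fasn (0.74), Acly (0.69) and Acaca (0.56) were as large as without it. With white adipocyte markers as the covariate Thrsp was at 0.87 and Acacb at 0.64, and Elovl6, Scd1, Fasn, Acly and Acaca were between 0.43 and 1.31. Limma adjusted p-values under the brown adipocyte covariate were 0.498 or higher for all 14 probes. Marker level and genotype differ together over these arrays and can be only partly told apart. Whether fat around the vessel had a part in any of these differences was not tested.

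**Figure D4:**
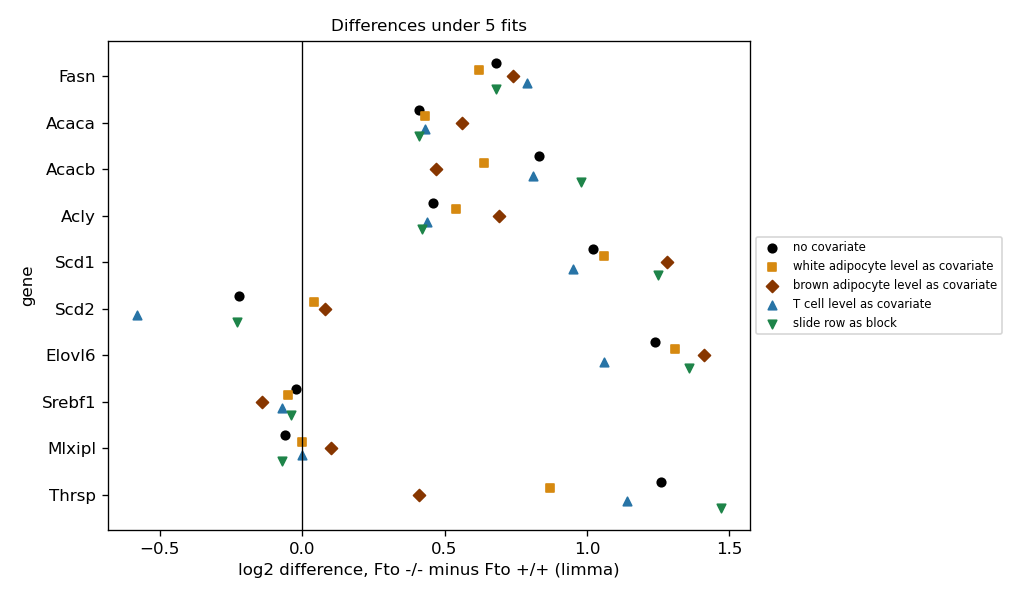
Log2 difference of each lipogenic gene, Fto -/- minus Fto +/+, under 5 limma fits: no covariate, the array mean of white adipocyte, brown adipocyte or T cell markers as a covariate, and slide row as a block. Thrsp moves from 1.26 to 0.41 and Acacb from 0.83 to 0.47 with brown adipocyte markers. Under that same covariate Elovl6, Scd1, Fasn, Acly and Acaca lie right of their value without one. This does not hold for every fit: Fasn is at 0.62 in place of 0.68 with white adipocyte markers, and Elovl6 at 1.06 in place of 1.24 with T cell markers.

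Thymocyte and T cell markers were uneven between arrays. Their mean was 1.29, -1.33, 1.87 and 1.13 in Fto -/- and -1.58, 1.68, -1.80 and -1.27 in Fto +/+ samples, with 9 of 11 markers tested and 0 past the limma threshold (1 at an unadjusted p under 0.05). Rag1, made in developing lymphocytes, was well above background on Fto -/- replicates 1, 3 and 4 and on Fto +/+ replicate 2, and Rag2 on 2 arrays. Cd3e gave 0.18 and Cd3d 2.58. With this list as a covariate the differences were 1.14 for Thrsp, 1.06 for Elovl6, 0.95 for Scd1 and 0.79 for Fasn. Leaving out the 4 arrays with Rag1 kept Fto -/- replicate 2 against Fto +/+ replicates 1, 3 and 4. There the differences were 1.98 for Scd1, 1.79 for Elovl6, 1.47 for Fasn, 0.97 for Acaca, 0.96 for Acacb, 0.95 for Acly, 0.96 for Thrsp and -0.54 for Scd2. The lone Fto -/- sample left is the highest array for Scd1, Fasn, Acaca and Acly, and it is assumed to vary like the other group.

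The vessel itself was well represented, with Acta2, Myh11, Tagln and Cnn1 well above background on all 8 arrays. The median difference was -0.09 over 8 smooth muscle markers, with 4 positive and 4 negative. Of the 8, 3 reached an unadjusted p under 0.05, 1 higher and 2 lower, against 19.0% of all tested probes. The 2 lower were Lmod1 (-0.78, limma adjusted p = 0.0681) and Cnn1 (-0.32, adjusted p = 0.148), each with no overlap between genotypes. The share of all tested probes with that pattern was not counted. The medians were -0.22 for endothelial markers (Pecam1, Cdh5, Tek and Kdr among 8), 0.26 for fibroblast markers (Pdgfra, Dpt, Col1a1 and Col1a2 among 8) and 0.39 for macrophage markers (Cd68, Adgre1, Csf1r and Mrc1 among 8). Of 8 hepatocyte markers 3 were tested, and Alb and Ttr were each well above background on 1 array and Apoa1 on none. Apoa2, Serpina1a and Cyp2e1 were well above background on all 8 arrays, with differences of 0.07, 0.40 and 0.86 (limma adjusted p = 0.921, 0.708 and 0.623). The mean of the macrophage markers was lowest in Fto +/+ replicate 4, at -1.32, the lowest array for Scd1 and Elovl6. It was highest in Fto -/- replicate 1, at 0.78, where Scd1 and Elovl6 were the lowest of their group. A relation between them was not tested.

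All arrays lay on 1 slide, with Fto -/- replicates 1 to 3 and Fto +/+ replicate 1 in row 1 and the other 4 in row 2. With the row as a block the differences were 1.47 for Thrsp, 1.36 for Elovl6, 1.25 for Scd1, 0.98 for Acacb and 0.68 for Fasn. Within row 1 they were 1.62, 1.29, 1.38, 1.11 and 0.77, and within row 2 they were 1.32, 1.42, 1.11, 0.86 and 0.59, in the same order. Acaca and Acly differed more between rows, at 0.67 and 0.62 within row 1 and 0.15 and 0.23 within row 2. Each row holds a genotype with a lone sample, so these rest on few arrays. With the row as a block, none of the 14 member probes passed the limma threshold. In that fit 6 of the 14 reached an unadjusted p under 0.05, as did 3351 of all 25292 tested probes.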

How the data were processed

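RNA of 8 thoracic aorta samples was hybridised with Cy3 alone to 1 array each, per the labels' protocols. The deposited scanner files hold the intensity of each spot from Agilent Feature Extraction 11.0.1.1, background-subtracted by that software, per the file headers, with no scaling between arrays. A series table that the authors deposited gives the same arrays as log2 values; 100% of its probes have a median of 0, its columns correlate with the scanner values at 0.9833 to 0.9967, its column medians lie between -0.00954 and 0.004804, with the normalisation not given in the sources used here. The array is annotated on mm9, so promoter coordinates, from RefSeq tables of GRCm38.p6, were not joined to array positions.

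Control spots were left out (59305 spots and 55681 probes remained), outlier spots were set to missing, and spots of a probe were averaged. Of the probes, 28325 (50.9%) were named through their RefSeq accession. Testing required a probe to be well above background on 4 or more arrays, whatever their genotype. Genotypes were compared with limma 3.58.1 in R 4.3.3, and the fit was tested on simulated data. The probe of highest mean stood for a gene. Array numbers do not pair: same-numbered samples had correlations of deviations of 0.155, -0.0235, -0.0187 and -0.0405.

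Named are all members, Fto, the 2 genes of smallest p in each pathway list where none passed, the first 4 of each marker list, and for Fasn, Elovl6, Scd1 and Thrsp the 3 genes nearest in root mean square difference, of which 1 is not reported here. Lep, Fabp4, Retn, Cfd, Serpina1a, Cyp2e1, Xist, Lmod1, Agpat2 and Dgat2 were named after their values were seen. The members and lists were chosen with earlier results of these data known. The scaling, background correction, filter, probe rule, arrays left out, slide row, replicate number and marker levels were varied.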

Additional observations from a re-analysis of the deposited data

Results flagged for a closer look

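In groups of 4 samples, 1 sample stood far from the other 3 in 2 of the 30 groups looked at, where chance flags about 1 in 20. The groups were those of the tested member probes and of Fto. Acly (brighter probe) was higher in Fto +/+ replicate 2, at 4.64, than in the other Fto +/+ samples. Elovl6 was lower in Fto -/- replicate 1, at 0.52, than in the other Fto -/- samples.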

How the results depend on the processing

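Acaca, Acacb, Acly, Elovl6, Fasn, Scd1 and Thrsp were positive under all 23 alternatives. Acacb passed the limma threshold without Fto -/- replicate 1 (1.06, adjusted p = 0.038) and Elovl6 with array weights (1.25, adjusted p = 0.049), which made 1 member probe in place of 0 (range 0 to 1 with 1 array left out). The member median, 0.57, was 0.39 to 0.81 with 1 array left out and 0.96 without the Rag1 arrays. Mlxipl (-0.16 to 0.02 with 1 array left out) turned to 0.02 without Fto +/+ replicate 4, 0.13 within row 1, 0.1 with the brown adipocyte covariate, 0.26 without the Rag1 arrays and 0.26 as the mean of its probes. Scd2 turned to 0.04 with the white and 0.08 with the brown adipocyte covariate. Srebf1 (-0.11 to 0.08 with 1 array left out) turned to 0.03, 0.01 and 0.08 without Fto -/- replicates 1 and 4 and Fto +/+ replicate 4, 0.06 within row 1 and 0.08 with array weights. Fto missed the threshold within row 1 (-3.02), row 2 (-3.33) and without the Rag1 arrays (-2.66), with fewer samples. The 419 probes called became 96 with no filter, 101 to 886 with 1 array left out (886 without Fto +/+ replicate 4, 101 without Fto -/- replicate 4), 46 with row as a block, 0 and 1 within rows 1 and 2 (2111 and 1390 at an unadjusted p under 0.05), 1624 with array weights, 72, 9 and 128 with the white, brown and T cell covariates, and 0 without the Rag1 arrays (2294 unadjusted). Pathway genes past the threshold, 0, became 3 with normexp on the median signal, an alternative chosen after seeing the data (Agpat2, Agpat3, Gpd1), 6 with array weights, and 0 to 1 with 1 array left out. The replicate block gave 132 probes, 2 pathway genes (Dgat2, Gpd1) and no other change of a call. In that limma fit 11 of the 14 member probes reached an unadjusted p under 0.05, against 7 in the main fit. Of all 25292 tested probes 4384 did so, against 4807 in the main fit. By correlation, 2 of 8 samples were closest to their own number. The causes were not tested.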
